A study of Mus musculus with 12 samples.

Results

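The genes described here encode enzymes that methylate lysine 36 of histone H3 (Setd2, Nsd1, Whsc1, Whsc1l1, Ash1l, Setmar and Smyd2) and proteins that bind this mark (Morf4l1 and Psip1). The 9 genes were taken by function, out of 26219 mouse RefSeq genes, and their rows were found by gene name in the deposited peak lists. Of the 9, 8 were named as the nearest start site of at least 1 peak, by 8 of 8977 Jmjd2a peaks and 12 of 10521 Jmjd2c peaks. Of 6940 start-site windows that the authors list as bound by both proteins, 4 belonged to these genes. The study asked which genes are bound by Jmjd2a (Kdm4a) and Jmjd2c (Kdm4c), demethylases of lysine 9 and lysine 36, in leukaemia cells of the mouse, grown from granulocyte-macrophage progenitors carrying the MLL-AF9 fusion oncogene. All 12 ChIP-seq libraries came from C57BL/6 cells with floxed Jmjd2a, Jmjd2b and Jmjd2c alleles and a tamoxifen-activated Cre at Rosa26 (Jmjd2a/b/cf/f;Rosa26::CreERT2). The cell lines derive from leukaemic mice, their number is not stated, and the cells grew in 20% serum with 10 ng/ml interleukin-3. Untreated cells and cells given 500 nM 4-hydroxytamoxifen (OHT) for 96 h each gave 1 Jmjd2a library, 1 Jmjd2c library, 2 libraries for trimethylated lysine 9 and 2 for trimethylated lysine 36.

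The deposited lists hold positions only, with no height, score or value per library. Sequencing depth is therefore unknown, no replicate check exists for any peak, and neither the response to OHT nor the histone-mark libraries were analysed here. Which libraries stand behind each list is not stated. A peak that was not called is not evidence that the protein was missing. The identity of the cells could not be checked, because peak positions give no expression of marker genes.

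Methylation of lysine 36 is laid down over the bodies of transcribed genes. Setd2 travels with elongating RNA polymerase and adds the trimethyl state, while the Nsd enzymes and Ash1l add lower states. Readers with chromo or PWWP domains bind the mark and bring further complexes, and the KDM4 demethylases Jmjd2a and Jmjd2c remove it. Several of these genes are tied to leukaemia, since Psip1 tethers the menin-MLL complex to chromatin and Nsd1 is a fusion partner in acute myeloid leukaemia.

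Jmjd2c had a called peak within 1000 bp of a start site named in the lists at 7 of the 9 genes (Setd2, Nsd1, Whsc1l1, Setmar, Smyd2, Morf4l1 and Psip1), and Jmjd2a at 4 (Setmar, Smyd2, Morf4l1 and Psip1). The corresponding shares of all RefSeq genes were 37.9% for Jmjd2c and 27.4% for Jmjd2a. All 4 genes with Jmjd2a also had Jmjd2c. Most genes with Jmjd2a did so: of 7183 RefSeq genes with Jmjd2a, 6432 had both. Both proteins were found at 24.5% of all genes. Among protein-coding genes alone the shares were 44.6% for Jmjd2c, 32.3% for Jmjd2a and 29.0% for both. Of the 7 genes with Jmjd2c, 4 also had Jmjd2a, beside 64.7% of all genes with Jmjd2c. Both readers carried both proteins, and of the 7 methyltransferase genes 5 had Jmjd2c and 2 had Jmjd2a. The readers here are only 2 genes, and among 20 other readers of the mark 9 had both. No test was made on these counts, because the genes were chosen with earlier results of these data known.

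The counts rest on the start sites that the lists name. Whsc1 and Ash1l have no named start site near a peak, yet peaks of both proteins lay at the 5′ end of both genes in the RefSeq gene table of assembly GRCm38.p6. When either end of a gene in that table was used instead, Jmjd2c lay within 1000 bp of 9 of the 9 genes and Jmjd2a within 1000 bp of 6. Over all RefSeq genes this rule gave 39.1% for Jmjd2c, 28.0% for Jmjd2a and 24.9% for both. These net shares moved little, while Whsc1 and Ash1l were counted for both proteins. The peaks at Ash1l are those that the lists assign to Dap3, and the peaks at Whsc1 also lie over a predicted gene. Neither call can be tied to the member gene alone.

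**Figure D1:**
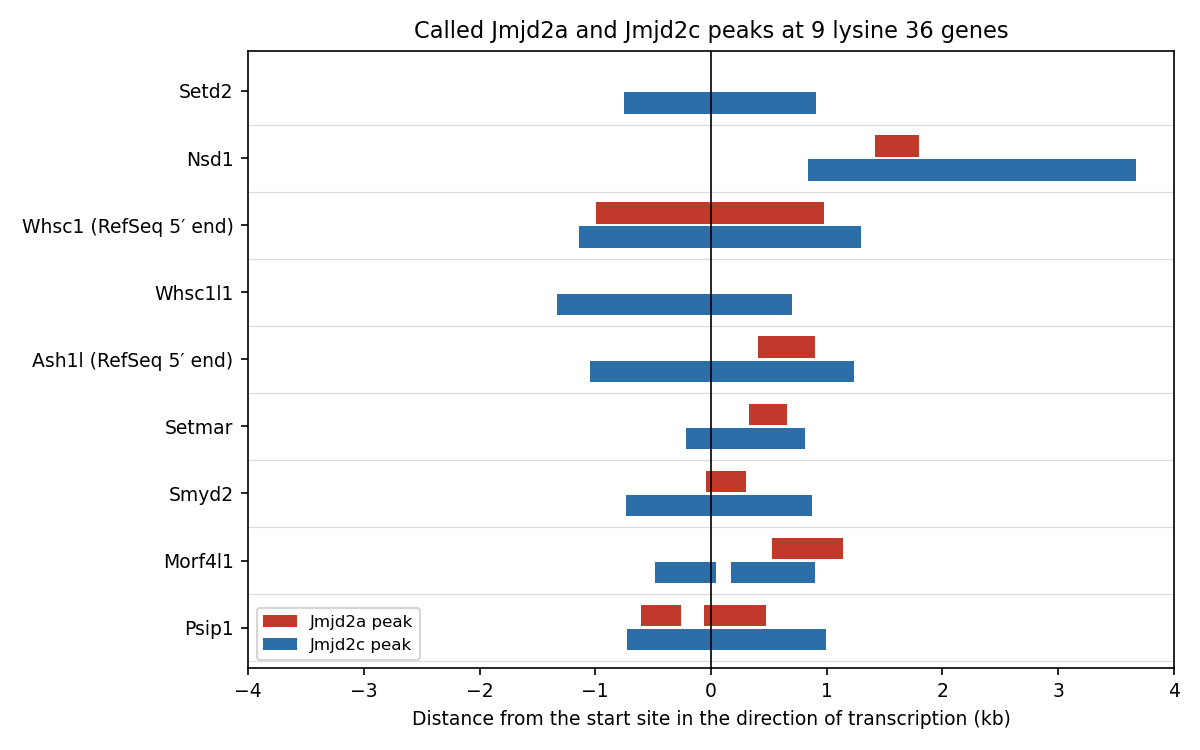
Called peaks of Jmjd2a (red) and Jmjd2c (blue) drawn to scale at the 9 genes, in kb from the start site, with transcription running to the right. For Whsc1 and Ash1l the zero point is the 5′ end in the RefSeq gene table; Setd2 and Whsc1l1 show a Jmjd2c peak only, and within the 4 kb drawn to each side the Jmjd2a peaks of Nsd1, Ash1l, Setmar and Morf4l1 lie downstream of the zero point.

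Reference promoter sequence was at hand for 4 of the 9 genes (Setd2, Setmar, Smyd2 and Morf4l1), in a RefSeq promoter table of build GRCm38.p6. The 250 bases before the start site of that table are shown because Jmjd2c peaks covered all 250 at Setd2, Smyd2 and Morf4l1 and 219 at Setmar, whereas Jmjd2a peaks covered 42 at Smyd2 and 0 at the other 3. RefSeq gene ranges begin further upstream at some of these genes, so 204 of the 250 bases at Smyd2 and 97 at Setd2 lie inside the gene's range. Sequences run 5′ to 3′ on the gene's strand, and capitals mark GGGCGG, the GC box bound by Sp factors, on either strand.

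Setd2, chr9:110532347-110532596, plus strand: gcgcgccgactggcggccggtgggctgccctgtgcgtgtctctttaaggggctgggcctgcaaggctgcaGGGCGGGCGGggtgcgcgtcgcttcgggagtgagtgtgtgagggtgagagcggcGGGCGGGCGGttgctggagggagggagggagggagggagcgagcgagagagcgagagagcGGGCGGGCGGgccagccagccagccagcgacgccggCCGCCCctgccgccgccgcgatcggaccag

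Smyd2, chr1:189922292-189922541, minus strand: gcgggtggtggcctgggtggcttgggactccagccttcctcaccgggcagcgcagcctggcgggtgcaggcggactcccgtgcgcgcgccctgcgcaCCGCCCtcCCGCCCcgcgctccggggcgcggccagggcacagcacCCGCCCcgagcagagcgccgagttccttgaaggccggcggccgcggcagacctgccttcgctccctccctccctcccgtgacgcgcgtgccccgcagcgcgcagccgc

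Morf4l1, chr9:90114821-90115070, minus strand: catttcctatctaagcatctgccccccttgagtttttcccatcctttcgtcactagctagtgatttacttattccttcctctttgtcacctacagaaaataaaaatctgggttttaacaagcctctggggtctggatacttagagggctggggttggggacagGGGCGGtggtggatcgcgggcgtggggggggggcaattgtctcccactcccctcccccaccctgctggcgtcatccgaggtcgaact

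Setmar, chr6:108064795-108065044, plus strand: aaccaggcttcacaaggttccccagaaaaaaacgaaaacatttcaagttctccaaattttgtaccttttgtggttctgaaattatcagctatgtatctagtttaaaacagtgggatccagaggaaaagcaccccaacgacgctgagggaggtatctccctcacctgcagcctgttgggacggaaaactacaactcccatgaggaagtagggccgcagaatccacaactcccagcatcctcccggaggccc

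The Setd2 and Smyd2 promoters were rich in G and C, and those of Morf4l1 and Setmar were not. G and C made up 76.0% of the Setd2 window and 78.8% of the Smyd2 window, more than in 96.7% and 98.3% of 32851 promoters. The ratio of observed to expected CpG was 0.940 at Setd2 and 0.886 at Smyd2, which places both among CpG-rich promoters. Morf4l1 had 54.0% G and C with a CpG ratio of 0.439, and Setmar 48.4% with a ratio of 0.416. Promoters with a Jmjd2c peak within 1000 bp had a median of 61.6% G and C and a median CpG ratio of 0.780, those with Jmjd2a 62.0% and 0.787, and those with neither 48.4% and 0.228. Setmar, with both proteins within 1000 bp of its start, thus had an upstream window whose G and C content equalled the median of promoters with neither, and its Jmjd2a peak lay outside that window. The GC box was found 7 times at Setd2 (overlapping matches counted), 3 times at Smyd2, 1 time at Morf4l1 and 0 times at Setmar, and it was present in 32.7% of all promoters. Among promoters with Jmjd2c nearby 62.9% held it, among those with Jmjd2a nearby 63.4%, and among those with neither 16.8%. The other motifs searched on both strands were absent from these 4 windows. They were CCGGAAG, which ETS factors bind (in 6.91% of all promoters), CCAAT, which NF-Y binds (33.8%), CACGTG, the E-box of Myc (6.02%), and TATAAA, the TATA box (12.4%).

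Setd2, the main enzyme for the trimethyl state, had a Jmjd2c peak only. The peak (chr9:110531849-110533501, 1653 bp) ran from 748 bp before to 904 bp after the start site at 110532597, over exon, intron, 5′ untranslated and coding sequence in the authors' annotation. The nearest Jmjd2a peak was 55309 bp from this start site. In RefSeq the gene spans chr9:110532500-110618633 on the plus strand.

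The Nsd family genes differed in where the peaks lay. Nsd1 (chr13:55209782-55318325, plus strand), mutated in the overgrowth disorder Sotos syndrome, was named by 4 Jmjd2c peaks and 2 Jmjd2a peaks, and none of them covered its start site. Of 10532 gene names in the Jmjd2c list, 18 (0.171%) were named by 4 or more peaks, and 14.7% of 7968 names in the Jmjd2a list by 2 or more. The widest, a Jmjd2c peak of 2835 bp (chr13:55210617-55213451), began 835 bp after the start and reached 3669 bp into the gene, and it was wider than 98.5% of the Jmjd2c list. Inside it lay a Jmjd2a peak of 375 bp (chr13:55211202-55211576), 1420 bp after the start and over an intron and the 5′ untranslated region. With edges at 835 and 1420 bp, the Jmjd2c peak of Nsd1 fell just inside the 1000 bp limit and its Jmjd2a peak just outside.

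The other 3 Jmjd2c peaks named for Nsd1 lay upstream of the gene, over no annotated feature. Their near edges were 7106, 18730 and 26792 bp before the start, and their widths were 1425, 1448 and 1030 bp. The middle one (chr13:55189605-55191052) held a Jmjd2a peak of 287 bp (chr13:55190040-55190326), which was narrower than all but 0.791% of the Jmjd2a list.

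Whsc1 (Nsd2), a dimethyltransferase gene activated by translocation in multiple myeloma, had 1 peak of each protein, and both were assigned to a start site far downstream. The Jmjd2a peak spanned 1973 bp (chr5:33819679-33821651), wider than 99.3% of its list, and lay wholly inside a Jmjd2c peak of 2439 bp (chr5:33819538-33821976), wider than 96.2% of its list. The lists place them 21461 and 21136 bp from a start site at 33843112. In the RefSeq gene table Whsc1 begins at 33820676, 22436 bp upstream of that site, and this position falls inside both peaks. The Jmjd2a peak reached from 997 bp before to 975 bp after it, and the Jmjd2c peak from 1138 bp before to 1300 bp after. Besides 3 curated transcripts the table lists 8 predicted ones for the gene. A predicted protein-coding gene, Gm52782 (chr5:33820864-33826026), also has an end inside both peaks, so the peaks cannot be tied to Whsc1 alone. The strand of Whsc1 is background knowledge and not given in the tables used.

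**Figure D2:**
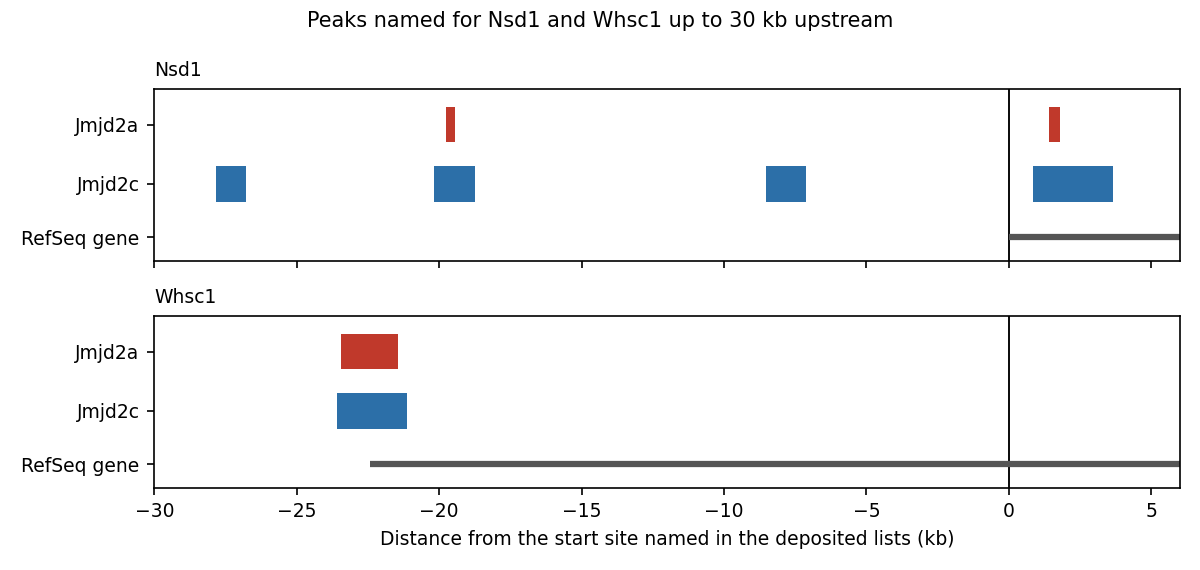
Peaks named for Nsd1 and for Whsc1, in kb from the start site named in the deposited lists, with transcription to the right and the RefSeq gene range as a grey bar cut at the right edge. Nsd1 has 3 Jmjd2c peaks upstream of its range, while the Whsc1 peaks cover the left end of the range 22436 bp before the named start site.

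Whsc1l1 (Nsd3), the third Nsd gene, had Jmjd2c without Jmjd2a. Its Jmjd2c peak of 2028 bp (chr8:25600974-25603001) reached from 1332 bp before to 695 bp after the start site at 25602306. No Jmjd2a peak was called within 58547 bp of this site. In RefSeq the gene begins at 25601601, 705 bp upstream of the named site and also inside the Jmjd2c peak. A further Jmjd2c peak of 1375 bp (chr8:25596502-25597876) covered the start site of Letm2, a mitochondrial protein gene upstream, and the authors list Whsc1l1 among the genes under it. Letm2 is likewise listed under the peak of 2028 bp, beside Whsc1l1.

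Ash1l, a Trithorax-group methyltransferase that works with MLL, was the gene with no row of its own in any list. In RefSeq it spans chr3:88950414-89079375, and its 5′ end lies 132 bp from the start site of Dap3 (88950282), a mitochondrial ribosome gene on the minus strand to which the lists assign the peaks there. A Jmjd2c peak of 2285 bp (chr3:88949368-88951652) covered both positions, from 1046 bp before to 1238 bp after the Ash1l end. A Jmjd2a peak of 496 bp (chr3:88950818-88951313) lay inside it, on the Ash1l side, from 404 to 899 bp into that gene. In the table Dap3 reaches to 88951213, so the ranges of both genes cover most of this Jmjd2a peak. The authors' table of co-bound start sites holds this locus under Dap3. Which of the genes the peaks belong to cannot be told from positions, and the plus strand of Ash1l is background knowledge.

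Setmar and Smyd2, the other methyltransferase genes, carried both proteins in windows of the authors' table of co-bound start sites. Setmar, whose primate form is fused to a transposase that the mouse gene lacks, had a Jmjd2c peak of 1033 bp (chr6:108064826-108065858) over its start at 108065045. Its Jmjd2a peak of 329 bp (chr6:108065373-108065701) lay inside the Jmjd2c peak, 328 to 656 bp after the start, over intron, coding and 5′ untranslated sequence. Smyd2, which in vitro methylates lysine 36 and also has substrates other than histones, had a Jmjd2c peak of 1610 bp (chr1:189921417-189923026) from 738 bp before to 871 bp after its start at 189922288. The Jmjd2a peak of 348 bp (chr1:189921986-189922333) covered that start, from 45 bp before to 302 bp after. The RefSeq gene range of Smyd2 ends at 189922495, 207 bp upstream of the named start, and against that end the Jmjd2a peak lay wholly downstream, at 162 to 509 bp. At both genes Jmjd2a covered little of the 1 kb to each side of the start: 329 bp at Setmar and 348 bp at Smyd2, more than in 3.56% and 4.60% of the 6940 windows, whose median was 854 bp. Jmjd2c covered 1033 and 1610 bp there, beside a median of 1415 bp.

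The readers showed both proteins, with split peaks. Morf4l1 (MRG15), a chromodomain protein of the Tip60 acetyltransferase and Sin3 deacetylase complexes, was named by 2 Jmjd2c peaks on either side of a gap. The first, of 526 bp (chr9:90114776-90115301), ran from 481 bp before to 44 bp after the start at 90114820 on the minus strand, and the second, of 734 bp (chr9:90113918-90114651), from 169 to 902 bp after it. The Jmjd2a peak of 615 bp (chr9:90113677-90114291), 529 to 1143 bp after the start, overlapped the second by 374 bp and did not reach the first. It was the only Jmjd2a peak of the 8 that did not lie wholly inside a Jmjd2c peak. Morf4l1 was named by 2 Jmjd2c peaks, as were 9.44% of the names in that list by 2 or more.

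Psip1 (LEDGF), the PWWP-domain reader that tethers menin and MLL, had 2 Jmjd2a peaks under 1 Jmjd2c peak. The Jmjd2c peak spanned 1724 bp (chr4:83485452-83487175), from 727 bp before to 996 bp after the start at 83486448 on the minus strand. A Jmjd2a peak of 535 bp (chr4:83485977-83486511) covered the start, and the other, of 348 bp (chr4:83486704-83487051), lay 256 to 603 bp upstream of it. Together they covered 883 bp of the window, more than in 52.8% of the 6940 windows, and 10.2% of these windows held 2 or more Jmjd2a peaks. Of the 4 co-bound genes, Smyd2 and Psip1 had Jmjd2a on the named start itself and Setmar and Morf4l1 did not, beside 67.2% of all windows. Jmjd2c lay on the start at all 4, as at 94.1% of all windows.

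Across the genes, most Jmjd2a calls were narrower than the median of their list, and most lay inside Jmjd2c calls. All 8 Jmjd2a peaks shared 1 bp or more with a Jmjd2c peak, beside 74.1% of the whole list. Of them 7 lay wholly inside one, beside 46.4% of the whole list. Of the 12 Jmjd2c peaks 7 overlapped a Jmjd2a peak, beside 58.6% of the list. The 5 without Jmjd2a were those of Setd2 and Whsc1l1, 2 upstream of Nsd1 and the one on the start of Morf4l1. Widths of the 8 Jmjd2a peaks ran from 287 to 1973 bp with a median of 361.5 bp, and 1 of the 8, that of Whsc1, was wider than the list's median of 706 bp. The 12 Jmjd2c peaks ran from 526 to 2835 bp with a median of 1529 bp, and 8 were wider than the list's median of 1302 bp. Peaks of 1 gene share their locus, and width is not a measure of signal.

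**Figure D3:**
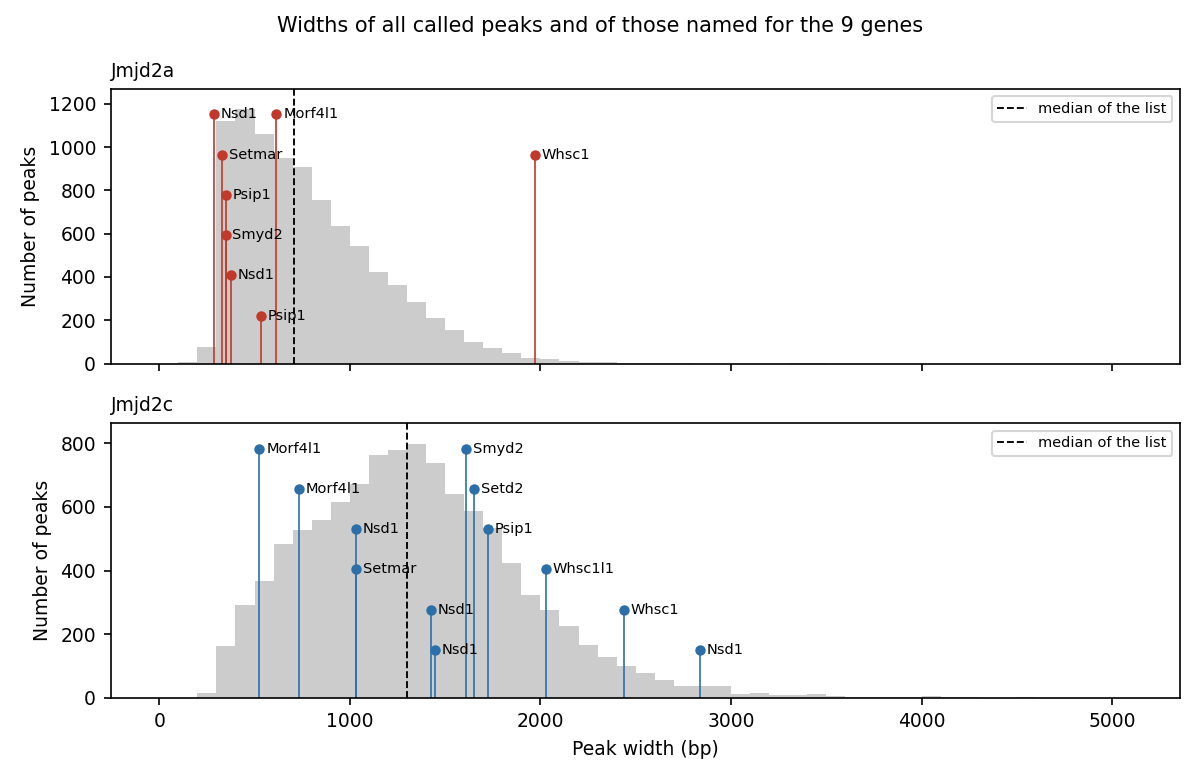
Numbers of all called Jmjd2a peaks (top) and Jmjd2c peaks (bottom) by width in bp, in grey, with the list's median dashed; coloured stems mark the peaks named for the 9 genes, at heights chosen only for legibility. Among the Jmjd2a stems the Whsc1 peak, at 1973 bp, is the only one right of the median of 706 bp, while Jmjd2c stems lie on both sides of 1302 bp.

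Other genes of the pathway were taken as 7 lists, also chosen with earlier results of these data known, and 78 distinct genes were matched. Jmjd2c lay within 1000 bp of a named start site at 70 of them (89.7%), Jmjd2a at 50 (64.1%) and both at 48 (61.5%), beside 37.9%, 27.4% and 24.5% of all RefSeq genes. For protein-coding genes alone these shares were 44.6%, 32.3% and 29.0%. Most of the 78 genes encode general chromatin and transcription factors, and no list was tested.

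The list of demethylase genes had Jmjd2c at 6 of 6 and Jmjd2a at 3, namely Kdm2a, Kdm4d and Kdm4c, with Jmjd2a peaks of 1016, 901 and 345 bp. With RefSeq gene ends Kdm4c lost both calls, which left 5 of 6 and 2. Kdm4d is included in all these counts. Whether each listed enzyme erases the mark, Kdm4d in particular, was not tested. Kdm2b, Kdm4a and Kdm4b had Jmjd2c alone. Kdm4a, Kdm4b and Kdm4c are the floxed genes themselves, Jmjd2a, Jmjd2b and Jmjd2c. Elongation factors around Setd2, the genes of the Paf complex with Supt6 and Iws1, likewise had Jmjd2c at 8 of 8 and Jmjd2a at 4. Those with both were Ctr9 (1147 bp for Jmjd2a), Leo1 (725 bp), Wdr61 (696 bp) and Rtf1 (356 bp), all subunits or associates of that complex. Supt6, Iws1, Paf1 and Cdc73 had a Jmjd2c call without a Jmjd2a call, as did Setd2. Such calls were common, since of all genes with Jmjd2c 64.7% also had Jmjd2a and the rest did not.

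Complexes that hold Morf4l1 had both proteins at most of their genes, not necessarily at the same start site of a gene. Sin3 deacetylase genes had Jmjd2c at 13 of 13 and Jmjd2a at 11, Rbbp7 and Arid4b lacking the latter. The widest Jmjd2a peaks there were at the deacetylase gene Hdac2 (1649 bp), at Ing1 (1278 bp) and at the core subunit genes Suds3 (1125 bp) and Sin3b (987 bp). Tip60 acetyltransferase genes had Jmjd2c at 14 of 16 and Jmjd2a at 10, Meaf6 (1325 bp), Epc1 (1222 bp), Trrap (1035 bp) and the catalytic subunit Kat5 (1018 bp) having the widest Jmjd2a peaks. With RefSeq gene ends Kat5 lost its Jmjd2a call and Ruvbl2 gained a Jmjd2c call. Morf4l2, the close paralogue of Morf4l1, had Jmjd2c alone, with a peak of 942 bp. How uniquely reads map to such paralogues was not examined.

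Partners of Psip1 had Jmjd2c at 7 of 7 and Jmjd2a at 5. Kmt2a, which encodes MLL itself, had a Jmjd2a peak of 519 bp and a Jmjd2c peak of 2628 bp, and Men1, which encodes menin, had Jmjd2c alone (998 bp). The replication kinase gene Cdc7 (1325 bp for Jmjd2a), Pogz (897 bp) and Cdca7l (530 bp), whose products bind Psip1, also had both, though Pogz had neither with RefSeq gene ends. Other readers of the mark had Jmjd2c at 16 of 20, Jmjd2a at 11 and both at 9. Brd1 (1905 bp for Jmjd2a), Zmynd11 (1828 bp), the mismatch repair gene Msh6 (1562 bp) and the DNA methyltransferase gene Dnmt3a (1502 bp) had the widest peaks with both. Hdgfrp3 and Zcwpw1 had Jmjd2a alone, and Phf1 and Zcwpw2 had neither. With RefSeq gene ends these calls changed: Dnmt3a had neither protein, Zcwpw1 both, Phf1 Jmjd2a and Zcwpw2 Jmjd2c. Other SET-domain relatives had Jmjd2c at 7 of 9 and Jmjd2a at 6. Setd4 (1246 bp for Jmjd2a), Smyd5 (1070 bp), Smyd3 (1058 bp) and Setd3 (927 bp) led those with both, and the muscle gene Smyd1 and the histone H4 methyltransferase gene Setd8 had neither.

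**Figure D4:**
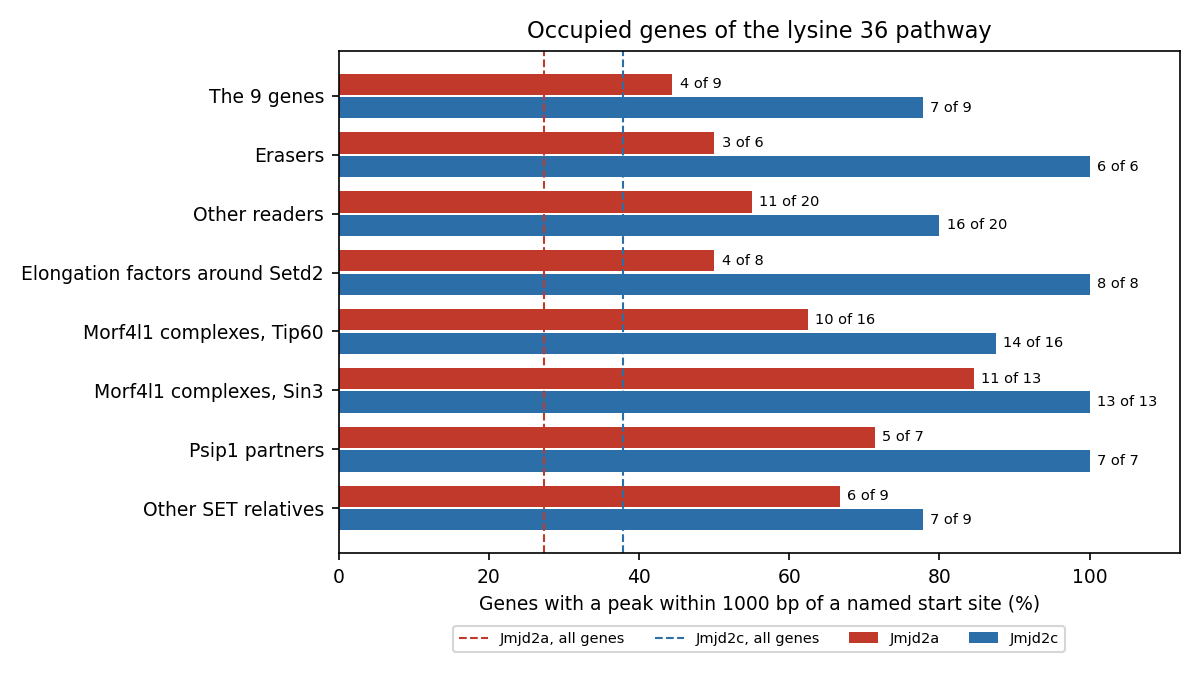
Share of genes with a called peak within 1000 bp of a named start site (%), for Jmjd2a (red) and Jmjd2c (blue), in the 9 genes and in 7 lists of the lysine 36 pathway; dashed lines give the shares of all RefSeq genes, 27.4% and 37.9%. In each list the Jmjd2c bar is longer than the Jmjd2a bar, and the 9 genes stand at 4 of 9 and 7 of 9.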

How the data were processed

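Chromatin immunoprecipitation followed by sequencing gave 12 libraries in 8 groups, taken from the sample titles. Per the submitters' processing notes, the reads were handled against build mm10 with bedtools 2.25.0, Bowtie 0.12.7 and SAMtools. How peaks were called, at what threshold, over which control and whether on pooled libraries was not given in the sources used. The authors deposited positions in bp of Jmjd2a and Jmjd2c peaks with the nearest start site, and of start-site windows of 1 kb to each side bound by both proteins, per the file headers.

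Deposited positions count from 0 with an open end; printed ones count from 1. Distances run from the nearest edge base of a peak to the start site and do not carry the sign of the deposited column. Occupied genes were those with a named start site no more than 1000 bp from a peak. A gene counted as having both proteins when each met this rule, even at different start sites of the gene. Of 17007 accessions in the lists 16875 were matched to the RefSeq table (GRCm38.p6, the primary assembly of mm10). As background served 26219 genes that have a curated transcript on the numbered, X and Y chromosomes. The table gives no strand. G and C content, CpG ratio and motifs were computed over 250 bases before each start in the RefSeq promoter table. The text names all 9 genes and, of each pathway list, up to 4 genes with both proteins, widest Jmjd2a peak first; genes lacking a peak that are named besides were chosen after their values were seen. The members and lists were chosen with earlier results of these data known. Distance and overlap steps were tested on simulated data. Windows of 0, 500 and 5000 bp, the wider part of each list, gene ends and other overlap rules were tried. Python 3.11.15, numpy 2.4.6, pandas 2.3.3 and matplotlib 3.10.9 were used.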

Additional observations from a re-analysis of the deposited data

How the results depend on the processing

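The number of genes with Jmjd2a, 4 of 9, fell to 2 when the peak had to cover the start site (Smyd2 and Psip1; 18.9% of all genes) and to 0 when only peaks at or above the median width of each list were kept (16.5% of all genes). The number with both proteins, also 4, was 2 and 0 under the same settings (16.6% and 10.0% of all genes). With windows of 500 and 5000 bp the Jmjd2a count was 3 and 5 (26.5% and 28.4% of all genes), Morf4l1 being lost and Nsd1 gained, and with gene ends it was 6 (28.0%). The Jmjd2c count of 7 ranged from 5 with the wider peaks (22.9% of all genes) to 9 with gene ends (39.1%). All 8 Jmjd2a peaks and 7 of the 12 Jmjd2c peaks shared at least 50% of the shorter peak with the other protein. Since 7 of the 8 Jmjd2a peaks lay wholly inside a Jmjd2c peak, this rule could change the Jmjd2a count only through the Morf4l1 peak. Edges within 1000 bp is a looser rule than overlap, so it could not lower a count, and it gave 8 and 8. Shares of the whole lists under these rules are not given here. For the pathway lists, gene ends were an alternative added after the data were seen. With them 70, 47 and 45 of 78 genes had Jmjd2c, Jmjd2a and both. Kdm4c, Dnmt3a and Pogz lost both calls and Kat5 that of Jmjd2a. Ruvbl2, Zcwpw1 and Zcwpw2 gained a Jmjd2c call and Phf1 a Jmjd2a call. The lists have no score, so width took the place of a stricter threshold, and the weakest calls cannot be told from the strongest. No paired analysis was possible because the deposited lists hold no value per library or replicate.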

Other observations

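The Whsc1 peaks were not the only ones far from a named start site but near the end of a gene in the RefSeq table. Of 1381 Jmjd2a peaks more than 10000 bp from a named start site, 163 (11.8%) lay within 1000 bp of an end of a RefSeq gene, and of 905 such Jmjd2c peaks 173 (19.1%) did. Both ends of each gene were used, so these counts include ends of transcription. By width the Whsc1 peak ranked 1 of 1381 among the Jmjd2a peaks and 10 of 905 among the Jmjd2c peaks, whose medians were 525 and 823 bp.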
